A study of Arabidopsis thaliana with 12 samples.

Results

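PUB19, PUB22, PUB23, PUB24, PUB25 and PUB26 are 6 Arabidopsis genes for plant U-box proteins, and they were followed here in seedlings that were or were not dehydrated. Their probe sets, the groups of oligonucleotides that report a gene on the array, were taken where the platform annotation assigns a probe set to 1 of these genes alone. That gave 1 probe set for each, 6 of the 13513 that name 1 gene. The loci are AT1G60190, AT3G52450, AT2G35930, AT3G11840, AT3G19380 and AT1G49780 in that order, and their coordinates are not given here. The members were chosen by their higher signal in dehydrated than in control seedlings of both lines, so every dehydration difference of theirs below is a description and carries no test. Differences between the plant lines were not used in that choice and were tested, although they rest on the same arrays.

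Total RNA was hybridised to 12 Affymetrix ATH1 arrays, 3 in each of 4 groups. The seedlings were wild-type Col-0 (WT) or the line 46T, which overexpresses the transcription factor WRKY46. Seedlings of each line, 1 week old, were left untreated (control) or laid on filter paper in dim light, at 22 °C and 60% humidity, to lose water for 1 h. All 46T arrays carry 1 line name, the sources used here do not give its promoter, and the level of WRKY46 itself was not analysed here. Control seedlings list no treatment, so water loss and being laid on paper cannot be told apart, and in whole seedlings fewer cells of a type and less RNA per cell cannot be told apart either. Replicates are labelled as biological.

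A U-box is a fold related to the RING finger but without its bound zinc ions. It brings an E2 enzyme carrying ubiquitin to a target protein, so that U-box proteins act as E3 ubiquitin ligases and often send their targets to the proteasome. In Arabidopsis, PUB22, PUB23 and PUB24 are known to act together in damping the immune response to microbial patterns, and PUB22 and PUB23 also limit drought tolerance. PUB19, with its close relative PUB18, is known to restrain responses to abscisic acid and drought. PUB25 and PUB26 are a closely related pair known to mark the immune kinase BIK1 for degradation.

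The arrays within a group had Spearman correlations between 0.910 and 0.988 over the 14495 tested probe sets. WT control replicate 1 stood apart on the second principal component, at 72.7, with the other 11 arrays between -25.0 and 29.3. The shoot marker RCA, which encodes rubisco activase, had a log2 signal between 14.74 and 15.18 on all arrays. Of 2 root hair genes, EXPA18 lay between 6.21 and 7.17 and EXPA7 never exceeded an array's 40th percentile. The guard cell lineage marker FMA, the 1 gene of its list, had means of 6.88 and 7.12 in WT and 46T controls and of 6.47 and 5.75 after dehydration. It fell by 1.37 ± 0.31 in 46T (limma adjusted p = 0.0105), a call lost when replicate 1 of either 46T group was left out. It differed by -0.41 ± 0.31 in WT (adjusted p = 0.446), and its part in the results below was not tested. The seed storage and pollen lists had no named probe set.

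PUB19 had the widest range of the 6. Its log2 signal in WT controls was 3.89, 4.99 and 4.02, and in 46T controls it was 5.34, 5.28 and 5.02. After dehydration it was 11.40, 12.15 and 11.22 in WT and 11.31, 11.56 and 11.43 in 46T. Each dehydrated array thus lay far above each control array, and no control array lifted PUB19 over the 40th percentile that served as the filter on dim probe sets, while all 6 dehydrated arrays did. PUB19 therefore entered the tested set only through the dehydrated seedlings. The log2 difference was 7.29 ± 0.28 in WT (SE, n = 3 arrays per group) and 6.22 ± 0.28 in 46T. With 32 added to each signal before the log, which dampens differences of dim probe sets, they were 5.89 and 5.34, so that the size of the PUB19 difference depends on how dim control signals are treated.

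Among the 3 genes known for a shared role in immune damping, PUB22 read 7.01, 7.94 and 7.34 in WT controls and 9.19, 8.85 and 8.92 in dehydrated WT. In 46T it read 7.39, 6.80 and 6.77 without treatment and 8.79, 8.57 and 9.16 after it. The control and dehydrated values did not overlap in either line, and within a condition the lines did. Its log2 difference after dehydration was 1.56 ± 0.25 in WT and 1.86 ± 0.25 in 46T (SE, n = 3), the only one of the 6 that was higher in 46T.

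PUB23 had log2 signals of 7.20, 6.64 and 7.02 in WT controls and 6.89, 7.15 and 7.09 in 46T controls. Dehydrated WT arrays gave 10.11, 9.51 and 9.42, and dehydrated 46T arrays gave 9.69, 8.70 and 10.13. The control groups of both lines coincided, and the dehydrated 46T arrays spread more widely (SD 0.73) than the dehydrated WT arrays (SD 0.37). The log2 difference was 2.73 ± 0.30 in WT and 2.46 ± 0.30 in 46T, and leaving out 46T dehydrated replicate 2, the lowest of the dehydrated arrays, gave 2.87 in 46T.

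Among the 6 members, PUB24 alone had 4 groups that did not overlap. How many of all probe sets show this was not counted, and the gap between conditions is what the members were chosen by. Its log2 signal was 6.51, 6.30 and 6.32 in WT controls and 7.09, 7.19 and 7.22 in 46T controls. It was 9.16, 8.52 and 8.63 in dehydrated WT and 9.21, 9.63 and 9.32 in dehydrated 46T. The order from low to high was WT control, 46T control, WT dehydrated and 46T dehydrated, with gaps between neighbouring group means of 0.79, 1.60 and 0.62. The dehydration difference was 2.39 ± 0.19 in WT and 2.23 ± 0.19 in 46T (SE, n = 3).

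PUB25 and PUB26 differed least between conditions. PUB25 read 8.69, 8.22 and 8.52 in WT controls, 8.49, 8.27 and 8.31 in 46T controls, 9.38, 9.19 and 9.58 in dehydrated WT and 9.14, 9.06 and 9.07 in dehydrated 46T. PUB26 read 8.99, 8.07 and 8.40, then 8.65, 8.37 and 8.38, then 9.84, 9.59 and 9.69, and last 9.64, 9.14 and 9.19 for the groups in that order. In both genes the control groups of the 2 lines overlapped, every dehydrated array exceeded every control array, and the mean of dehydrated WT was the highest. The log2 differences of PUB25 were 0.91 ± 0.16 in WT and 0.73 ± 0.16 in 46T, and those of PUB26 were 1.22 ± 0.22 and 0.86 ± 0.22. PUB25 and PUB26 were also the 2 members with the most alike profiles, with a root mean square distance of 0.20 on the log2 scale over 12 arrays after each was centred on its own mean. The other 14 pairings of members lay between 0.56 and 3.02. This distance depends strongly on the size of the dehydration differences, by which the members were chosen and which were smallest in PUB25 and PUB26.

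**Figure D1:**
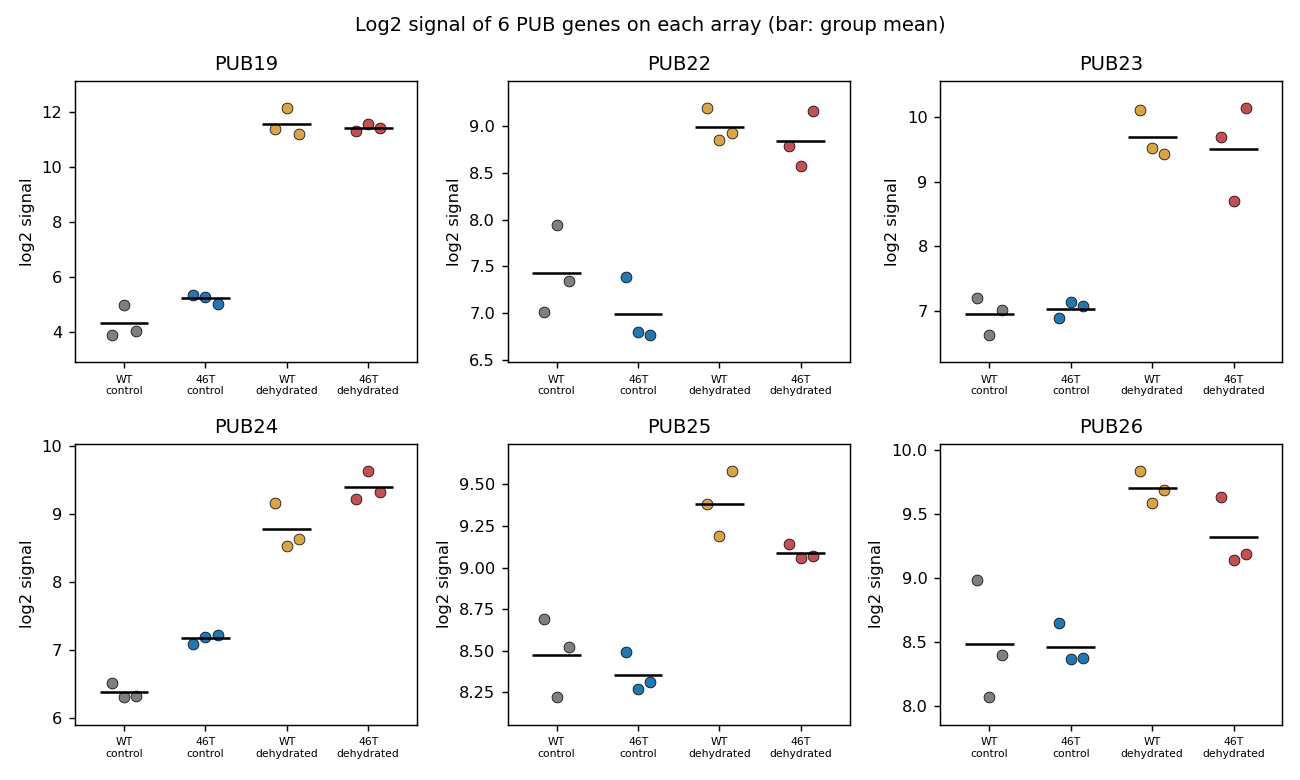
Log2 signal (vertical axis, own scale in each panel) of the 6 genes on each of the 12 arrays, by group on the horizontal axis, with a bar at the mean of 3 arrays. In every panel the dehydrated arrays lie above the control arrays; PUB24 is the gene in which 46T also lies above WT in both conditions.

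By construction of the set, all 6 genes were called higher after dehydration in WT, where 7.29% of the tested probe sets were, and in 46T, where 6.69% were; nothing is read from these counts. After centring each array on its median, the calls in WT split into 838 higher and 876 lower, against 1057 and 623 without it. The smallest dehydration differences among the members were those of PUB25 in both lines. Of the remaining U-box genes named on the array, those that were tested were not called.

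Those others were 5 genes, of which 4 were tested. RefSeq's gene table holds 23 genes with a PUB name or synonym, so other genes of the family, such as PUB18, were not covered. limma called none of the 4 in either line, where 11.6% (WT) and 10.2% (46T) of all probe sets were called in either direction. Of the 4, 0 had an unadjusted p under 0.05, where 3840 (WT) and 3518 (46T) of the 14495 tested probe sets did. With 4 genes, nothing is read from that count. PUB49, which joins a U-box to a cyclophilin-type domain, had log2 differences of -0.40 ± 0.30 in WT and -0.14 ± 0.30 in 46T. PUB43 had -0.03 ± 0.18 and 0.08 ± 0.18. MAC3A and MAC3B, U-box proteins of a complex associated with splicing, had -0.01 and 0.03 in WT and -0.05 and -0.20 in 46T. PUB15 stayed below the 40th percentile on every array, with log2 signals between 0.59 and 5.39, and was not tested. The tested non-members thus had differences from -0.40 to 0.08, against 0.73 to 7.29 in the 6 members, which were divided by this very measure.

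**Figure D2:**
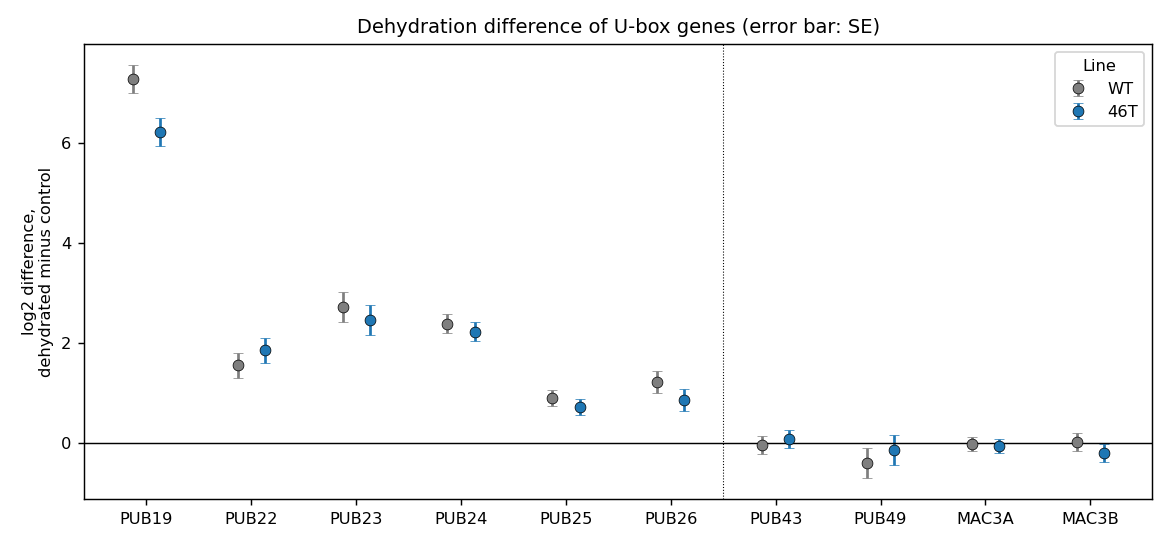
Log2 difference between dehydrated and control seedlings (vertical axis) in WT and 46T for the 6 genes, left of the dotted line, and for 4 other U-box genes, right of it; error bars are SE from 3 arrays per group. PUB19 reaches 7.29 in WT and 6.22 in 46T, and the 4 others lie between -0.40 and 0.08.

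The lines were then compared, which asked whether overexpression of WRKY46 went with another level of these genes. Averaged over both conditions, PUB24 was higher in 46T than in WT by 0.70 ± 0.14 on the log2 scale (SE, 6 arrays per line), or 1.63-fold, with a 95% interval of 0.41 to 1.00 and a limma adjusted p of 0.0212. It was the 1 member of 6 called in this comparison, in which 1.65% of all tested probe sets were called, 1.14% higher and 0.511% lower. All 6 arrays of 46T exceeded the WT arrays of the same condition, a pattern that was not counted over all probe sets. The difference was 0.79 ± 0.19 in control seedlings and 0.62 ± 0.19 in dehydrated ones, which share no arrays, and neither passed alone (limma adjusted p = 0.110 and 0.357). PUB24 is dim in WT controls, where 2 of 3 arrays exceeded the filter level. With 32 added to each signal the differences were 0.61 and 0.58, and the average was 0.60 (limma adjusted p = 0.0242).

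The call of PUB24 was lost after quantile normalization (0.59, adjusted p = 0.0549) and after median centring (0.57, adjusted p = 0.0620), under which the calls of all probe sets split into 183 higher and 146 lower and into 151 and 159, against 165 and 74 as deposited. Relative to the median of all tested probe sets, PUB24 differed by 0.66 as deposited and by 0.60 after quantile normalization. Median centring shifts all probe sets of an array alike, so it leaves this value unchanged by construction and is no check on it. Leaving out any 1 array gave 0.64 to 0.80, with adjusted p from 0.00709 to 0.0711, and the call was lost in 6 of 12 cases, namely without any 46T control replicate, WT dehydrated replicate 3, or 46T dehydrated replicate 2 or 3. Without WT control replicate 1 it was 0.74 (adjusted p = 0.0106). Spiked-in poly-A RNAs, which report on labelling, had mean log2 signals of 8.39 ± 0.48 in WT controls, 7.88 ± 0.09 in 46T controls, 8.33 ± 0.20 in dehydrated WT and 7.83 ± 0.06 in dehydrated 46T (SD, n = 3). They were lower in 46T in both conditions, opposite in sign to PUB24, and their part in the PUB24 difference was not tested.

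The other 5 members did not pass. PUB19 was higher in 46T controls by 0.91 ± 0.28, with no overlap between the control groups, a 95% interval of 0.30 to 1.52 and a limma adjusted p of 0.251. How many of all probe sets lack such overlap between the lines was not counted. The PUB19 difference was 1.25 (adjusted p = 0.00990) without WT control replicate 2, its highest WT control array. Both control groups are below the filter level for PUB19, and the same difference was 0.21 with low signals raised to a log2 floor of 5 and 0.40 with the pseudocount. After dehydration the lines overlapped for PUB19, with a difference of -0.16 and an interval of -0.77 to 0.45.

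For PUB22, PUB23, PUB25 and PUB26, the line difference averaged over both conditions was -0.30 (95% interval -0.68 to 0.09), -0.04 (-0.50 to 0.42), -0.21 (-0.45 to 0.04) and -0.20 (-0.53 to 0.13). All 4 intervals hold 0, and their outermost ends are -0.68 and 0.42. In dehydrated seedlings the PUB25 arrays of 46T, at 9.06 to 9.14, lay below those of WT, at 9.19 to 9.58, but the difference of -0.29 ± 0.16 did not pass (limma adjusted p = 0.567). Such a gap was not counted over all probe sets, and nothing is read from it. No member was called in control seedlings, where 0.359% of probe sets were, or in dehydrated seedlings, where 0.152% were. At an unadjusted p under 0.05 there were 2 members in control seedlings, PUB19 and PUB24, and 1 in dehydrated seedlings, PUB24. Of all 14495 tested probe sets, 1984 in control and 1398 in dehydrated seedlings were under that limit, so nothing is read from these member counts.

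**Figure D3:**
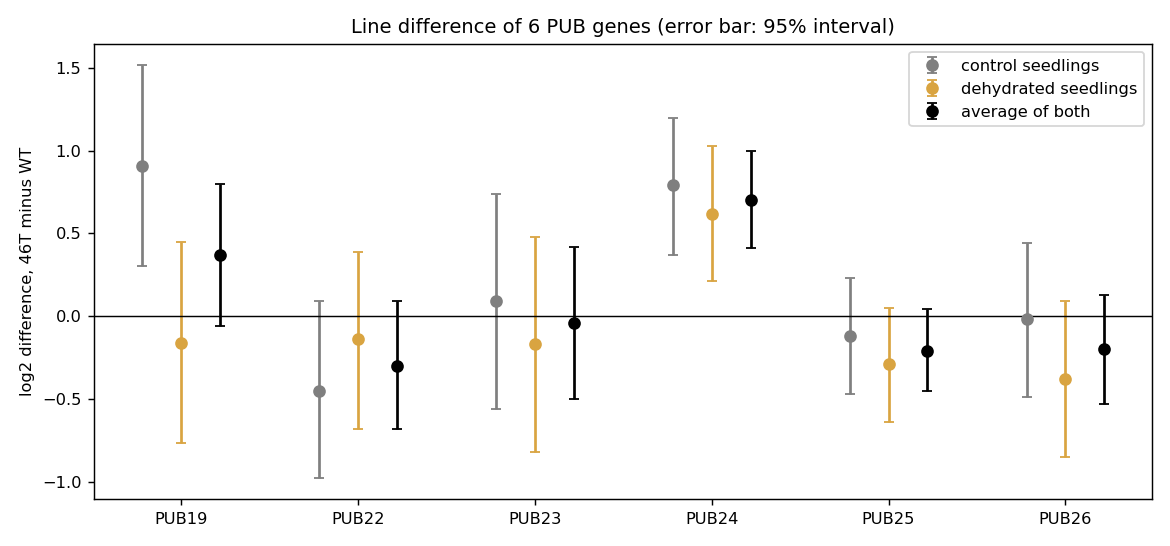
Log2 difference between 46T and WT (vertical axis) for each of the 6 genes in control seedlings, in dehydrated seedlings and averaged over both, with 95% intervals from the limma fit. All 3 intervals of PUB24 lie above 0; the averaged one, 0.41 to 1.00, is the only one of the figure whose adjusted p over all probe sets passed.

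Whether the dehydration difference itself differed between the lines was tested as an interaction. None of the 6 members passed, and neither did any other probe set: limma called 0 of 14495, a share of 0%, with 291 at an unadjusted p under 0.05. For PUB19 the interaction was -1.07 ± 0.40 on the log2 scale, but it rests on control signals below the filter level in both lines, and it was -0.37 with the floor and -0.56 with the pseudocount, so no difference in response is read from it. The estimates of the other 5 lay between -0.36 for PUB26 and 0.30 for PUB22. The 95% intervals of these 5 all held 0. They reached from -1.18 to 0.66 for PUB23, from -0.46 to 1.06 for PUB22 and, the narrowest, from -0.66 to 0.32 for PUB25. These intervals are not limits of detection. With 3 arrays per group, a difference in response within a gene's own interval remains possible.

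Proteins that these ligases act on or work with were covered thinly. Of the substrate and partner list, 2 genes had a named probe set. BIK1, the receptor-like cytoplasmic kinase targeted by PUB25 and PUB26, rose by 0.94 ± 0.20 in 46T (9.55 ± 0.17 to 10.48 ± 0.24, SD, n = 3; limma adjusted p = 0.00844). In WT it rose by 0.67 ± 0.20 (9.70 ± 0.15 to 10.37 ± 0.43; adjusted p = 0.0455), a call lost in 16 of 22 alternatives, which include leaving out any 1 array other than WT dehydrated replicate 2. Without WT dehydrated replicate 1 the difference was 0.45 (adjusted p = 0.204). RPN12a, a proteasome lid subunit that PUB22 and PUB23 ubiquitinate, was not called, at -0.22 ± 0.13 in WT and -0.21 ± 0.13 in 46T. Neither gene was called between the lines. RPN12a was also the 1 named gene of the ubiquitin and proteasome list.

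E2 enzymes hand ubiquitin to E3 ligases. Of 13 E2 genes named, 11 were tested, 0 rose and 1 fell in each line, where 4.3% and 3.5% of all probe sets fell. The median E2 difference was -0.25 in WT and -0.19 in 46T, against -0.02 and -0.07 over all tested probe sets. The E2 gene that passed was UBC28, which fell by 0.49 ± 0.14 in WT and fell by 0.46 ± 0.14 in 46T (limma adjusted p = 0.0330 and 0.0483). These calls were lost in 8 and in 12 of 22 alternatives. In WT they were lost without WT control replicate 2, 46T control replicate 1, or WT dehydrated replicate 1 or 2, and in 46T without any 46T array or WT dehydrated replicate 2.

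Of 5 other E3 genes on the list, 4 were tested. ATL5, a RING-H2 ligase, rose by 1.55 ± 0.30 in WT and by 1.30 ± 0.30 in 46T (limma adjusted p = 0.00390 and 0.0117), from 6.23 ± 0.72 to 7.79 ± 0.19 and from 6.24 ± 0.10 to 7.53 ± 0.14 (SD, n = 3). The 46T call of ATL5 did not hold when replicate 2 of either 46T group was left out. RING1, a RING-type ligase, rose by 1.1 ± 0.26 in 46T (adjusted p = 0.0125), a call lost without 46T control replicate 1. In WT it differed by 0.55 ± 0.26 (adjusted p = 0.190; 0.83 and 0.0413 without WT control replicate 3), and its interaction did not pass. ATL8, another RING-H2 protein, had differences of the opposite sign, -0.66 ± 0.27 in WT and -0.85 ± 0.27 in 46T, which were not called (adjusted p = 0.131 and 0.0598). The ATL8 difference was called in 7 of 22 alternatives in 46T, the replicate block among them, and in 1 of 22, array weights, in WT. XERICO, a RING protein, had 0.05 in WT and -0.28 in 46T and was not called, and none of the 4 was called between the lines. Of the early immune signalling list, BIK1 and WRKY22 were tested, and WRKY22, a transcription factor, rose in 46T (0.84 ± 0.20, limma adjusted p = 0.0163). That call was lost when replicate 1 or 3 of the 46T controls or replicate 3 of dehydrated 46T was left out. WRKY22 differed by 0.42 ± 0.20 in WT (adjusted p = 0.202; called without WT control replicate 1), and its interaction did not pass.

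**Figure D4:**
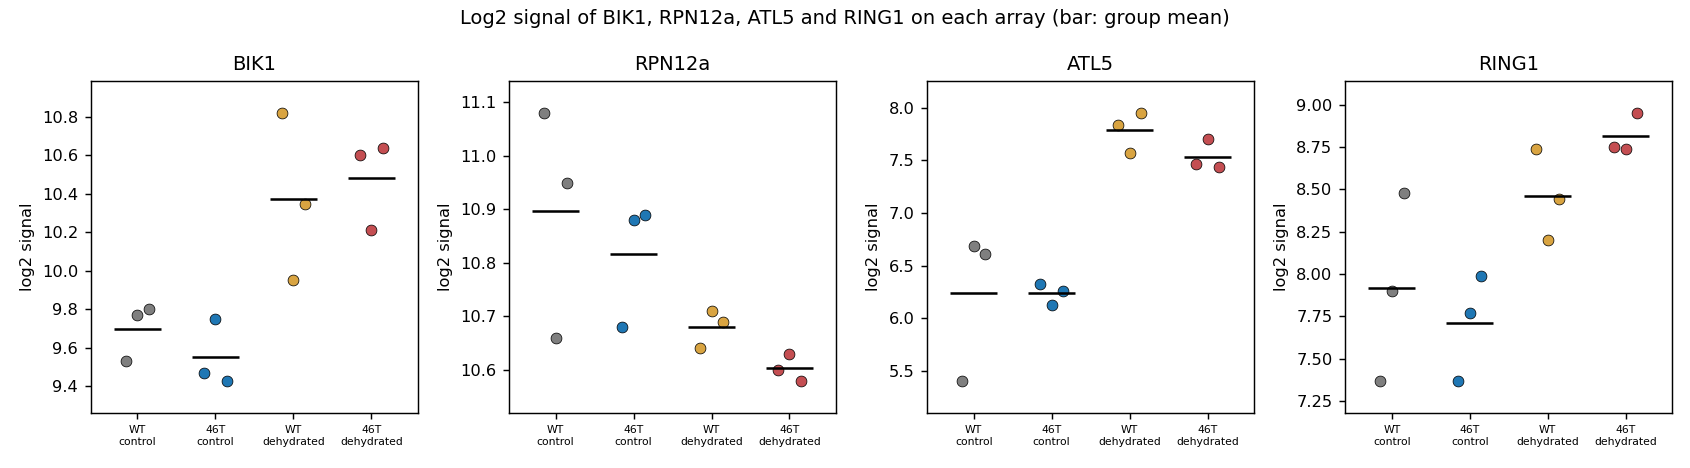
Log2 signal (vertical axis, own scale in each panel) of BIK1, RPN12a, ATL5 and RING1 on each of the 12 arrays, by group, with a bar at the mean of 3 arrays. The dehydrated means of BIK1 are 10.37 and 10.48, above 9.70 and 9.55 in controls, and those of RPN12a are 10.68 and 10.61, against 10.89 and 10.82 in controls.

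Genes with the most similar profiles were sought among the 7828 other tested probe sets of 1 gene, by the root mean square distance of centred log2 values over 12 arrays. For PUB19 the nearest was WRKY53, a WRKY transcription factor, at 0.88, followed by AT4G27657 at 1.23 and AT4G29780 at 1.30. For PUB24 the nearest was AT2G26190 at 0.29, with group means of 8.64 in WT controls, 9.36 in 46T controls, 10.62 in dehydrated WT and 11.48 in dehydrated 46T, the same order as in PUB24. AT5G66070 and AT5G18470 followed it, both at 0.32 and with that order too. These genes were picked for their likeness to PUB24 on the same arrays, so the shared order is no separate support for it. PUB22 was nearest to AT4G27280 (0.28), PUB23 to AT3G04640 (0.33), PUB25 to AT3G55430 (0.14) and PUB26 to AT5G56980 (0.20). PUB25 and PUB26 lie about as near to each other as PUB26 does to its nearest other gene, while PUB25 lies nearer to AT3G55430 than to PUB26.

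No member lies beside another in the annotation. Of the 24 protein-coding genes that flank them, 2 on each side, 11 were tested, and 1 was called after dehydration in each line, against 11.6% of all probe sets in WT and 10.2% in 46T. That gene was AT3G52470, next but one to PUB22, at 0.82 in WT and 0.67 in 46T (limma adjusted p = 0.00423 and 0.0148). The tested flanking genes of PUB19, PUB23, PUB24 and PUB25 did not pass, and those of PUB26 were not tested.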

How the data were processed

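The deposited table holds log2 signals for 22810 probe sets on 12 arrays, made by the authors with MAS5 per the submitters' processing notes; no version is named in the sources used here. Unlogged and with 2% trimmed from both ends, each array averaged 499.7 to 499.8, and the values were not normalized again. MAS5 signals are noisy when low. Probe sets above the 40th percentile of an array's non-control values on at least 3 arrays were tested, 14495 in all. Groups came from the sample titles. limma 3.58.1 in R 4.3.3 fitted 4 group means (lmFit, eBayes with an intensity trend); two-sided p-values had Benjamini-Hochberg adjustment over all tested probe sets, with calls under 0.05. Precision is limited by the number of arrays. Alternatives were a floor at log2 5, a pseudocount of 32, quantile normalization, median centring, other filters, a replicate block, array weights, no trend, the compared groups alone and leaving out each array. The code was tested on simulated data. Gene names came from the platform annotation and RefSeq's table for TAIR10.1, and 13436 of 13513 matched. The 6 members and all lists were chosen with earlier results of these data known. Named genes were the members, the other U-box genes, called genes of the lists and the uncalled RPN12a, ATL8 and XERICO. The cell type markers and up to 3 of the most alike probe sets per member were also named. AT3G52470 was named after its value was seen. Arrays of equal number in different groups deviated together with r from -0.12 to 0.35 (median 0.03), so the numbers were not taken as pairs.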

Additional observations from a re-analysis of the deposited data

How the results depend on the processing

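Over 780 recomputed values of the 6 genes, 745 kept their direction and their side of the threshold or, for dehydration, moved by less than 1 SD. Many could not do otherwise. A dehydration difference stays the same under another filter, with the replicate block or without an array of the other line. The count is therefore no measure of robustness. The averaged line difference of PUB24, the 1 member call as deposited, was lost in 8 of 21 alternatives. Counts of all probe sets called varied more. With array weights, whose fit stopped before it converged, they were 3469 for dehydration in WT, 3770 in 46T, 2926 between control seedlings of the lines, 432 in dehydrated seedlings, 3752 averaged and 1 for the interaction; the members called were then 2 in control seedlings (PUB19 and PUB24), 1 in dehydrated seedlings (PUB24) and 2 averaged (PUB19 and PUB24). The weights of WT control replicates 1, 2 and 3 were 0.142, 0.305 and 3.84, so under this setting the WT control group rests mostly on replicate 3. Fits of the compared groups alone gave 751, 3079, 14 and 206 in the same order of comparisons. The stricter filter gave 32 for the control and 144 for the averaged comparison, median centring 85 for the control comparison, and the floor, pseudocount and quantile normalization 37, 43 and 36 for the dehydrated one. The averaged comparison called 0 members after quantile normalization or median centring, and 423 probe sets with a replicate block, where PUB24 stayed at 0.70 (adjusted p = 0.0282); no member changed its call with the block. The labels' replicate numbers did not pair the arrays, and 2 of 12 correlated best with their own number throughout.

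Leaving out 1 array gave 833 to 2372 calls for dehydration in WT, 772 to 2382 in 46T, 13 to 1640 between control seedlings of the lines, 13 to 176 in dehydrated seedlings, 77 to 2693 averaged and 0 to 0 for the interaction. The highest control and averaged counts, 1640 and 2693 of 14495, were without WT control replicate 2, where 2 members, PUB19 and PUB24, were called in each. PUB19 lay below the filter level on all control arrays, so nothing is read from its calls here or with array weights. With the floor at log2 5 on all arrays, its control difference was 0.21 and its averaged one 0.02, and neither was called. Members called ranged from 0 to 2 in control seedlings, 0 to 0 in dehydrated seedlings, 0 to 2 averaged and 0 to 0 for the interaction. The members' sign changes were all in differences that were not called as deposited: PUB23 in control seedlings was -0.07 after quantile normalization and -0.08 after median centring, and PUB26 was 0.09 with array weights. Without 1 array, the control difference ranged from -0.07 to 0.21 for PUB23 and -0.23 to 0.23 for PUB26, the dehydrated one from -0.35 to 0.12 for PUB19 and -0.49 to 0.23 for PUB23, the averaged one from -0.20 to 0.16 for PUB23, and the interaction from -0.29 to 0.03 for PUB24 and -0.57 to 0.14 for PUB23. The cause of these shifts was not tested.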

Other observations

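Array by array, the 6 genes did not deviate from their group means as a block. Over the 12 arrays, whose points share library and scaling, deviations of PUB25 and PUB26 correlated with r = 0.75. By such a correlation PUB26 ranked 178 among 14494 probe sets for PUB25, and PUB25 ranked 528 for PUB26. Both genes deviated most in WT control replicates 1 (0.22 and 0.50) and 2 (-0.26 and -0.41). For the other pairs r lay between -0.84 (PUB19 and PUB25) and 0.47 (PUB19 and PUB22). PUB19 is below the filter level on all control arrays, and its deviations there are those of a dim signal. PUB19 and PUB22 deviated the same way in WT control replicates 1 (-0.42 and -0.42) and 2 (0.69 and 0.51), and opposite ways in WT dehydrated replicates 1 (-0.19 and 0.20) and 2 (0.56 and -0.13) and 46T dehydrated replicate 2 (0.13 and -0.27). These are descriptions without a test.

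PUB49, a U-box gene outside the set, had an averaged line difference of 0.48 ± 0.21 that did not pass (limma adjusted p = 0.203); it passed with array weights (0.50, adjusted p = 0.0133) and without WT control replicate 2 (0.66, adjusted p = 0.0197). PUB15, dim throughout, read 4.69 to 5.39 in WT controls and 0.59 to 4.80 on the other 9 arrays.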
